A study of Mus musculus with 6 samples.

Results

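Genes of DNA replication (S phase) and of G2 and mitosis were followed in regulatory T cells (Treg) recovered from the spleen after a bone marrow graft. The set held 40 genes, 18 of S phase and 22 of G2/M, chosen by symbol as a list of replication and mitosis genes, and all 40 were found among the 29199 genes of the deposited table and passed the filter on low counts that left 18321 genes for testing. The rule used gene symbols alone, but the list was chosen with earlier results of these data known. The question was whether Treg that had been co-injected with HP1α-deficient conventional CD4 T cells (Tconv) carried more or less cell cycle RNA than Treg that had been co-injected with wild-type Tconv.

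In this model, lethally irradiated C57BL/6 J or CD45.1+ C57BL/6 (B6) mice received equal parts of syngeneic C57BL/6 J marrow and semi-allogeneic B6D2F1 marrow, both depleted of NK and T cells, together with naive CD4 Tconv and Treg. Every Treg was wild-type, came from B6 Foxp3-Thy1.1 mice, in which the Thy1.1 marker is expressed under Foxp3, and had been expanded in culture with beads against CD3 and CD28, IL-2 and TGFβ. The groups differed in the Tconv, which were wild-type (WT) in 3 libraries and HP1α knockout (KO) in the other 3. The KO Tconv lack HP1α, a heterochromatin protein, in all cells through a floxed allele excised by CMV-cre, and came from heterozygous crosses of mixed 129/Sv and C57BL/6 origin, with littermates as WT donors. Mice were 6 to 12 weeks old, and Treg were sorted 3 weeks after the graft by Thy1.1, CD4 and CD45.2, keeping cells with H-2Kb and without CD45.1 and discarding those with H-2Kd, which B6D2F1 cells carry and B6 cells lack. The sources do not say whether a library came from 1 mouse or from pooled mice, so p-values measure the spread between these libraries.

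Proliferating cells copy their DNA in S phase and separate the copies in mitosis. In G1, cyclin E and the E2F factors switch on the replication genes, the MCM helicase is loaded on origins with the help of Cdc6, and PCNA and the enzymes that make deoxynucleotides serve the replication fork. Cyclin A, cyclin B and Cdk1 then carry the cell into mitosis, where Aurora and Polo kinases, kinesins and centromere proteins build the spindle, and Cdc20 and Ube2c act with the anaphase-promoting complex to end it. Treg divide in lymphoid tissue, and the RNA of these genes is commonly read as a measure of how many cells are cycling. In bulk RNA, fewer cycling cells and less of this RNA per cycling cell cannot be told apart.

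The 6 libraries held 87421755 to 119078882 counts and 22573 to 24626 genes with a count, and each of the 40 genes had between 373 (E2f1) and 120714 (Mki67) counts per library, so that counting error was small beside the spread between libraries. Summed markers of Treg and T cells (Foxp3, Il2ra, Ctla4, Ikzf2, Cd4, Cd3e, Cd3g and Trac) lay between 5373 and 6310 CPM, and each of the 8 genes was at 120.6 CPM or more in every library. Of the 8, only Ctla4, an inhibitory receptor of Treg, did not overlap between the groups, at 1246, 1349 and 1112 CPM with WT Tconv against 1028, 1018 and 798 CPM with HP1α KO Tconv. Its log2 fold change was -0.38 (SE 0.12, adjusted p = 0.232) by edgeR, with an adjusted p of 0.0414 by DESeq2. Over all genes tested, the groups did not overlap for 23.0%, and DESeq2 called 4.35% of those it tested. CPM stands for counts per 1e6 counts of a library, after TMM scaling of its total. Replicate 3 of Treg with WT Tconv stood apart by RNA of other blood cells. Its summed red cell markers (9 genes in the table) reached 6298 CPM against 396 to 731 CPM in the other 5 libraries, and its neutrophil precursor markers (13 genes) reached 1911 CPM against 44.7 to 234 CPM. All 9 and all 13 genes were highest in that library. Genes that define red cell precursors were low elsewhere. Klf1, an erythroid transcription factor, stood at 27.2 CPM in that library and at 0.635 to 1.56 CPM in the others, and Epor, the erythropoietin receptor, at 9.53 CPM against 0.445 to 0.656 CPM. Of the 9 macrophage and monocyte markers, Ccr2 was lowest in that library (289 CPM against 301 to 344 CPM) and the other 8 were highest in it. Those 8, summed without Ccr2 after the values were seen, reached 202 CPM against 16.9 to 55.0 CPM, Lyz2 among them 168 CPM against 7.36 to 38.6 CPM. B cell markers (7 genes) summed to 38.2 CPM in the same library against 25.4 to 33.0 CPM, and plasma cell markers (4 genes) to 12.5 CPM against 0.994 to 4.26 CPM. CD8 markers (2 genes) summed to 7.81 CPM in it and 5.82 to 8.77 CPM in the others, and NK cell markers (3 genes) to 5.49 CPM against 2.61 to 5.49 CPM. The part of these cells in the results below was not tested. HP1α KO replicate 2 stood apart in another way. It was the lowest library for Foxp3 (154 CPM against 200.1 to 252 CPM in the others) and Il2ra (121 against 161 to 199 CPM). It was also lowest for Cd3e (147 against 188 to 221 CPM) and Cd4 (688 against 729 to 843 CPM). It was highest for Cd3g (768 against 623 to 729 CPM) and neither highest nor lowest for Ctla4, Ikzf2 and Trac. Over all genes tested it was lowest for 22.3% and highest for 21.9%. Among genes averaging 10 or more counts, the chi-square per degree of freedom between its counts and those of the other HP1α KO libraries was 140.1 and 174, against 29.0 between those 2, while WT replicate 3 gave 114 and 121 against the other WT libraries, which gave 21.3 between themselves. Without HP1α KO replicate 2 the median log2 fold change of the 40 genes was -0.10, against -0.11 with it.

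No cell cycle gene of the set was called changed. With the quasi-likelihood test of edgeR, 0 of 40 had an adjusted p-value under 0.05 (0% of all genes tested) and 0 of 40 had an unadjusted p-value under 0.05 (14.5% of all genes tested). DESeq2 called 0 of 40 (4.35% of the genes it tested), and limma-voom called 0 of 40 (and 0 of all genes tested). The 3 values with WT Tconv overlapped the 3 values with HP1α KO Tconv for every gene of the set, whereas the groups did not overlap for 23.0% of all genes tested. The smallest adjusted p-value was 0.387 by edgeR, for Mcm6, and 0.229 by DESeq2, for E2f1.

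The differences were small. Fold changes are on the log2 scale, and a value below 0 means less RNA in Treg with HP1α KO Tconv. They ran from -0.68 (Ccne2) to 0.16 (Cdc20) with a median of -0.11, beside a median of -0.01 over all genes tested. The median was -0.17 for the S genes and -0.10 for the G2/M genes. In all, 34 genes had a value below 0 and 6 had a value above 0. The 95% intervals of all 40 covered 0, with half-widths from 0.17 to 1.39 and a median of 0.35, and for 34 of the 40 the interval lay within 1 log2 unit of 0 on both sides. For these 34 genes a change of 2-fold in either direction lay outside the interval.

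**Figure D1:**
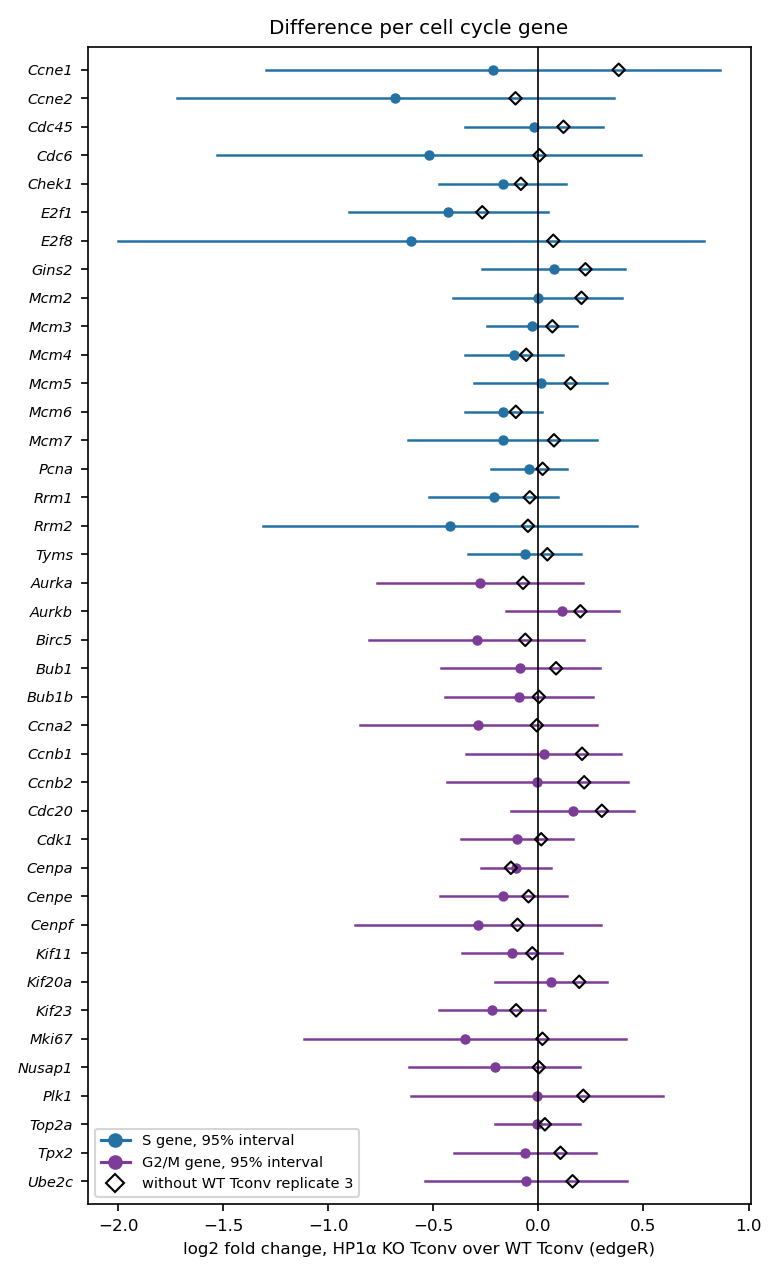
Log2 fold change per gene (x axis, HP1α KO Tconv over WT Tconv) with its 95% interval for the 40 cell cycle genes (y axis), S genes in blue and G2/M genes in purple; open diamonds give the value without replicate 3 of Treg with WT Tconv. All 40 intervals cross 0, and 25 diamonds lie above 0 where 6 of the filled points do.

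The lean below 0 was not seen without 1 library. Replicate 3 of Treg with WT Tconv held the highest CPM for 38 of the 40 genes, for all 18 S genes and 20 of the 22 G2/M genes, and was highest for 20.0% of all genes tested. Top2a, highest in WT replicate 1, and Cenpa, highest in WT replicate 2, were the exceptions. WT replicate 2, of the same group, held the lowest value for 22 of the 40 genes and for 14.2% of all genes. HP1α KO replicate 2 was lowest for 12 genes (30%), and for 22.3% of all genes. WT libraries therefore held the highest value of all 40 genes and the lowest of 22, and the SD of the WT group exceeded that of the HP1α KO group for 38 of the 40. That SD includes WT replicate 3, and the share of all genes with a larger SD in the WT group was not taken. When replicate 3 was left out, the edgeR fit gave 15 genes below 0 and 25 above, with a median of 0.02, beside 0.01 over all genes, and 19 of the 40 changed sign. The smallest adjusted p-value of the set was then 0.390. Red cell and neutrophil markers moved with this library as given above.

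**Figure D2:**
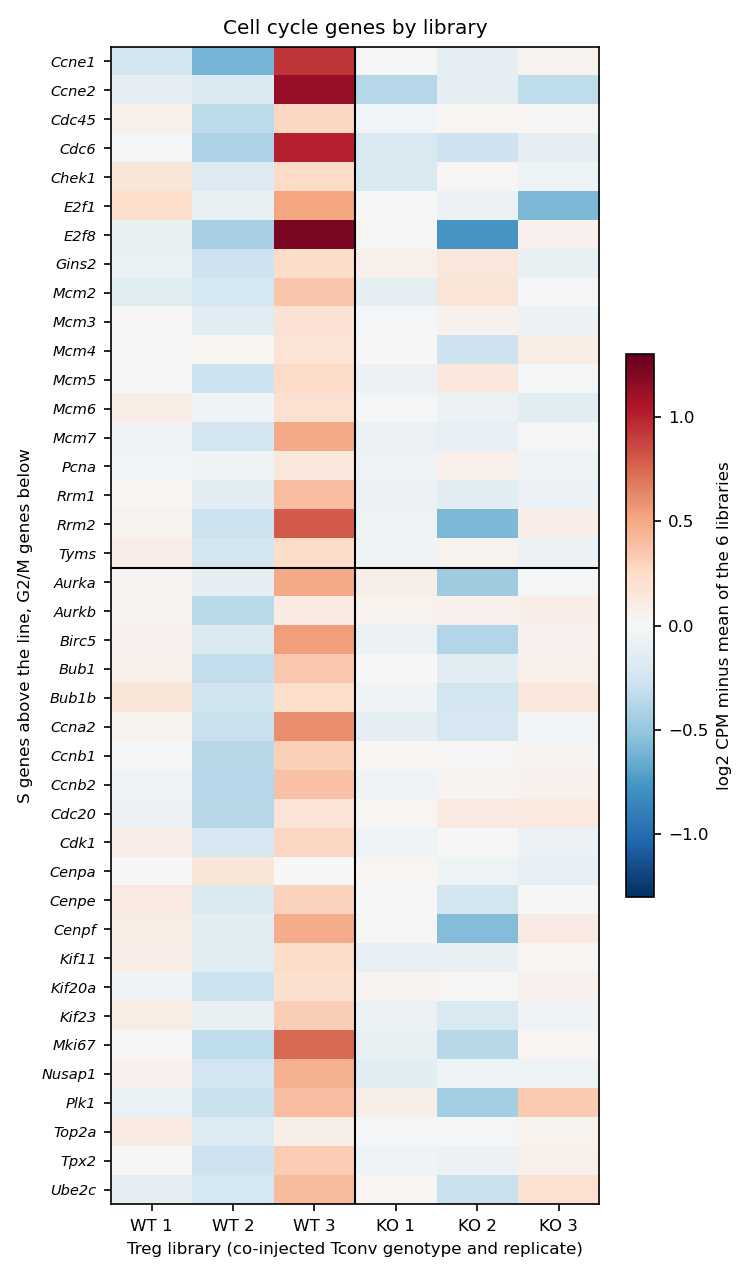
Each cell shows the log2 CPM of 1 of the 40 genes (rows) in 1 of the 6 Treg libraries (columns) minus the mean of that gene over the 6 libraries, with red above and blue below that mean. The column of WT replicate 3 is red for nearly every gene, most of all for E2f8, Ccne2, Cdc6 and Ccne1, and the column of WT replicate 2 is blue for most.

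As a proliferation score, the mean log2 CPM over the 40 genes was taken for each library. It was 5.66, 5.42 and 6.06 in Treg with WT Tconv and 5.60, 5.51 and 5.64 in Treg with HP1α KO Tconv. The KO libraries lay inside the range of the WT libraries, with means of 5.59 ± 0.07 against 5.71 ± 0.32 (SD, n = 3 each) and a difference of -0.13. The S score was 5.53, 5.31 and 6.03 with WT Tconv and 5.46, 5.43 and 5.46 with HP1α KO Tconv, a difference of -0.17. The G2/M score was 5.77, 5.51 and 6.08 against 5.72, 5.58 and 5.79, a difference of -0.09. Each difference was smaller than the SD of the WT group, which was 0.37 for the S score and 0.29 for the G2/M score. Without WT replicate 3 the differences were 0.05 for all 40 genes, 0.03 for S and 0.05 for G2/M.

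**Figure D3:**
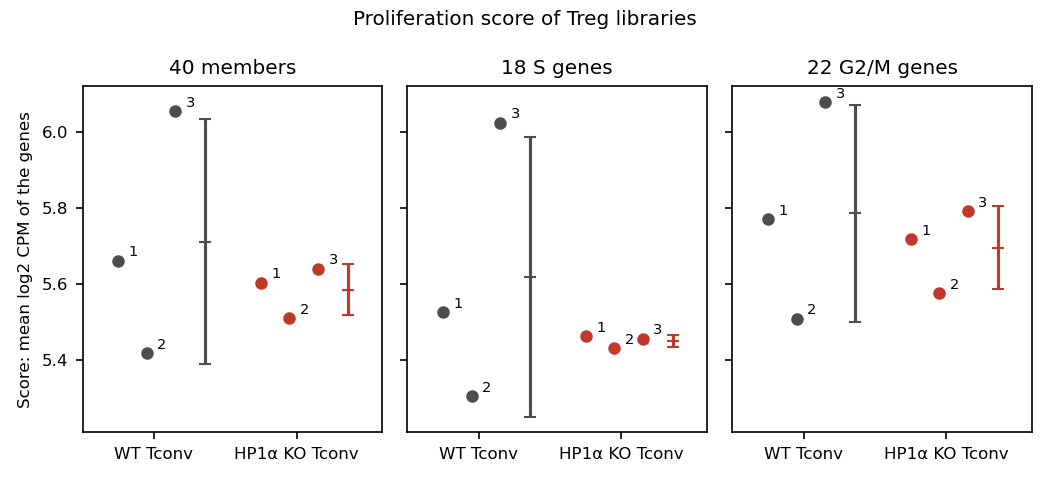
Mean log2 CPM per library (y axis) over all 40 genes, the 18 S genes and the 22 G2/M genes, with a point for each replicate (numbered) and the mean ± SD of 3 libraries beside the points. In each panel the HP1α KO Tconv libraries lie between WT replicates 2 and 3.

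**Figure D4:**
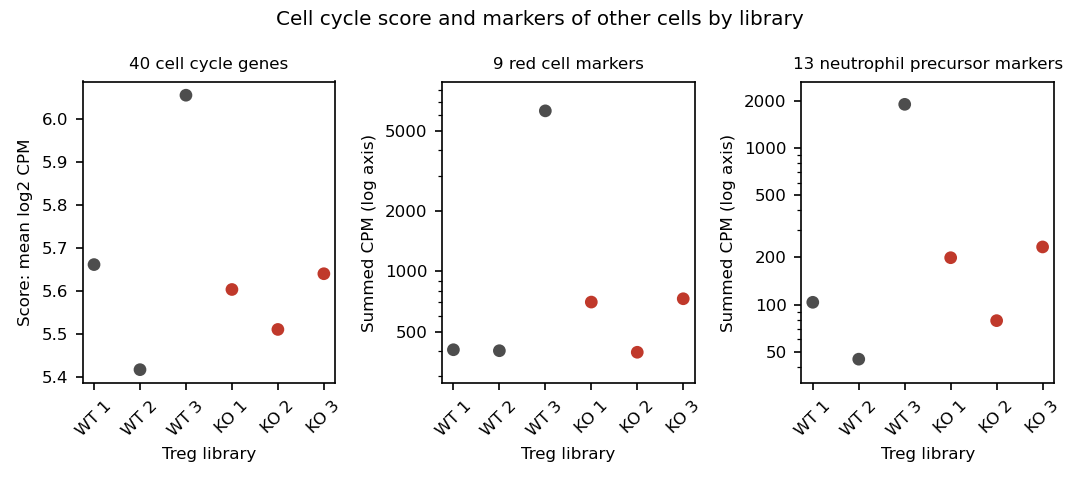
Score of the 40 cell cycle genes and summed CPM (log axes) of 9 red cell markers and 13 neutrophil precursor markers in each of the 6 Treg libraries, WT Tconv in grey and HP1α KO Tconv in red. WT replicate 3 is the highest point in all 3 panels, at 6.06, 6298 CPM and 1911 CPM.

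The helicase and origin licensing genes, which act from G1 into S phase, had a median log2 fold change of -0.03. Levels are compared between genes per kilobase of exon, with the exons of all annotated transcripts of a gene merged. The merged length can exceed that of a single transcript, so these ranks depend in part on the annotation. By that measure Mcm6 (49.9 CPM per kb) and Mcm4 (30.5 CPM per kb) were the most abundant subunits of the MCM helicase, and Mcm2 (10.1 CPM per kb) the least. Mcm6 (chr1:128259311-128287516, minus strand in GRCm39) had the smallest p-value of the set. Its level was 289, 262 and 309.9 CPM in Treg with WT Tconv and 266, 257 and 244 CPM in Treg with HP1α KO Tconv. The highest KO value exceeded the lowest WT value by little, and the log2 fold change was -0.17 (SE 0.08, 95% interval -0.35 to 0.02, adjusted p = 0.387), not past the threshold. Mcm2 was measured at 71.1, 67.5 and 101 CPM with WT Tconv against 72.8, 89.0 and 77.7 CPM with HP1α KO Tconv, with all 3 KO libraries between WT replicates 1 and 3 and a log2 fold change of -0.0032 (SE 0.17, 95% interval -0.41 to 0.40, adjusted p = 0.996). Mcm3, Mcm4, Mcm5 and Mcm7, the other helicase subunits measured, had log2 fold changes of -0.03, -0.12, 0.01 and -0.17. The loader Cdc6 differed from them in its spread. Its level was 23.0, 17.6 and 47.1 CPM with WT Tconv against 20.3, 19.4 and 21.4 CPM with HP1α KO Tconv, so that 1 WT library stood at 2.32 times the mean of the other 5, and its log2 fold change of -0.52 had an SE of 0.39. Cdc45 and Gins2, which join the helicase when the fork fires, had log2 fold changes of -0.02 and 0.07. In GRCm39, 67.3% of the exon bases of Gins2 lie opposite exons of Gse1. The library kit keeps the strand, but the sources used here do not give the strand setting of the counting, so the level of Gins2 is uncertain.

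Genes that serve DNA synthesis had a median biological coefficient of variation, the spread between libraries beyond counting error, of 0.13, and Rrm2 was the widest of them. Pcna, the sliding clamp of the polymerases, was the most abundant gene of the set per kilobase (132 CPM per kb). Its level was 310.1, 308 and 351 CPM in Treg with WT Tconv and 303, 333 and 304 CPM in Treg with HP1α KO Tconv. These values overlapped widely, and the log2 fold change was -0.04 (SE 0.08, 95% interval -0.22 to 0.14, adjusted p = 0.824). Ribonucleotide reductase, which makes deoxynucleotides, was represented by its large subunit Rrm1 and its cell cycle-regulated subunit Rrm2. Rrm1 stood at 151, 134 and 196 CPM with WT Tconv against 141, 134 and 140.4 CPM with HP1α KO Tconv, with a log2 fold change of -0.21 (SE 0.13, 95% interval -0.52 to 0.10, adjusted p = 0.510). Rrm2 ranged more, at 85.6, 68.6 and 145 CPM with WT Tconv against 79.7, 55.5 and 88.1 CPM with HP1α KO Tconv, with the highest value in WT replicate 3 and the lowest in HP1α KO replicate 2, and a log2 fold change of -0.42 (SE 0.35, 95% interval -1.31 to 0.47, adjusted p = 0.629). Thymidylate synthase (Tyms) had a log2 fold change of -0.07.

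The 5 regulators of the G1/S transition had a median log2 fold change of -0.43. Without WT replicate 3 their values were -0.27 (E2f1), 0.07 (E2f8), 0.38 (Ccne1), -0.11 (Ccne2) and -0.08 (Chek1). Their median biological coefficient of variation was 0.35, against 0.16 over the 40 genes and 0.21 over all genes tested. E2f1, which activates replication genes, was among the least abundant (1.88 CPM per kb). Its level was 7.42, 5.92 and 9.05 CPM in Treg with WT Tconv and 6.37, 6.03 and 4.22 CPM in Treg with HP1α KO Tconv. HP1α KO replicate 3 was the lowest and WT replicate 3 the highest, and the log2 fold change was -0.43 (SE 0.21, 95% interval -0.90 to 0.04, adjusted p = 0.390). DESeq2 gave it an adjusted p of 0.229. Ccne1, which encodes cyclin E1 and partners Cdk2, stood at 12.4, 9.67 and 27.9 CPM with WT Tconv against 14.5, 13.4 and 15.2 CPM with HP1α KO Tconv. All 3 KO values lay above WT replicates 1 and 2 and below WT replicate 3, with a log2 fold change of -0.21 (SE 0.42, 95% interval -1.30 to 0.87, adjusted p = 0.846) that became 0.38 without WT replicate 3 (adjusted p = 0.390 by edgeR). Cyclin E2 (Ccne2) was at 15.8, 15.1 and 37.9 CPM with WT Tconv against 13.4, 15.8 and 13.8 CPM with HP1α KO Tconv, and the repressor E2f8 at 13.4, 10.6 and 33.6 CPM with WT Tconv against 14.6, 8.44 and 14.9 CPM with HP1α KO Tconv. For both genes WT replicate 3 stood apart, at 2.57 and 2.72 times the mean of the other 5 libraries. These values, with those of Cdc6, were singled out after they were seen. Chek1, the kinase that answers stalled forks, was the least abundant per kilobase (1.00 CPM per kb, over 10606 merged exon bases), with a log2 fold change of -0.17. Before division by length, its 9.23 to 12.6 CPM exceeded the level of E2f1 in every library.

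Mitotic cyclins and Cdk1 did not separate the groups. Cdk1 was measured at 41.7, 33.8 and 47.3 CPM in Treg with WT Tconv and 37.8, 39.2 and 37.3 CPM in Treg with HP1α KO Tconv. The 3 KO values lay inside the WT range, and the log2 fold change was -0.10 (SE 0.12, 95% interval -0.37 to 0.16, adjusted p = 0.713). Ccnb1, encoding cyclin B1, was even closer among the KO libraries, at 46.0, 36.3 and 57.9 CPM with WT Tconv against 47.5, 47.4 and 47.8 CPM with HP1α KO Tconv, with a log2 fold change of 0.02 (SE 0.16, 95% interval -0.34 to 0.39, adjusted p = 0.957). Ccna2, encoding cyclin A2, stood at 87.6, 69.6 and 129 CPM with WT Tconv against 78.4, 73.0 and 83.1 CPM with HP1α KO Tconv, again with WT replicate 3 alone above the rest, and a log2 fold change of -0.29 (SE 0.23, 95% interval -0.85 to 0.28, adjusted p = 0.611). Ccnb2 had a log2 fold change of -0.0047.

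Mitotic kinases and the spindle checkpoint gave the same picture. Aurkb, the kinase of the chromosomal passenger complex, was at 30.4, 23.1 and 31.7 CPM with WT Tconv against 30.2, 30.6 and 31.3 CPM with HP1α KO Tconv. Its WT replicate 2 stood below the other 5 libraries, which lay within 30.2 to 31.7 CPM, and the log2 fold change was 0.11 (SE 0.12, 95% interval -0.16 to 0.38, adjusted p = 0.691). Birc5, which encodes survivin, a partner of Aurkb in that complex, was at 46.4, 39.3 and 65.0 CPM with WT Tconv against 42.4, 34.3 and 46.3 CPM with HP1α KO Tconv, with a log2 fold change of -0.29 (SE 0.21, 95% interval -0.80 to 0.22, adjusted p = 0.573). Aurka, Plk1, Bub1 and Bub1b had log2 fold changes of -0.28, -0.01, -0.09 and -0.09. Exons of Aurka overlap antisense exons of Cstf1 and Fam210b over 32.7% of their bases, so its level is uncertain for the same reason. Of the 40 genes, 14 have some exon bases opposite another gene, and the levels of those not yet named carry the same limit over the overlapping bases. The overlap was 10.6% for Cdc45 (opposite Ufd1), 12.3% for Mcm7 (Ap4m1 and Cops6), 15.2% for Ccne2 (Ints8), 17.5% for Ccna2 (Exosc9), 19.0% for Ube2c (Tnnc2), 20.2% for E2f8 (Gm2788) and 20.8% for Pcna (AV099323), and 0.841% to 4.01% for Cdk1, Ccne1, Cdc20 and Nusap1. Relative to the gene itself, the highest counts of the opposite gene in a library were 620.1% for Gse1 (opposite Gins2), 458% for Ints8, 418% for Brd8 and 146% for Cdc23 (both opposite Kif20a), 399.6% for Ufd1, 224% for Cstf1 and 122% for Fam210b (both opposite Aurka) and 51.0% for Exosc9. They were 38.4% for Cops6 and 26.9% for Ap4m1 (both opposite Mcm7), 7.55% for Oip5 (opposite Nusap1), 4.86% for Gm2788 and 0.214% for AV099323.

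Of the genes that act with the anaphase-promoting complex, Cdc20 had the highest log2 fold change of the whole set. Its level was 28.0, 22.9 and 33.1 CPM in Treg with WT Tconv and 30.0, 31.8 and 32.1 CPM in Treg with HP1α KO Tconv. The KO libraries lay between WT replicates 1 and 3, and the log2 fold change was 0.16 (SE 0.13, 95% interval -0.13 to 0.45, adjusted p = 0.595). Without WT replicate 3 it was 0.30 (adjusted p = 0.390 by edgeR). The ubiquitin-conjugating enzyme Ube2c had a log2 fold change of -0.06.

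Spindle genes had a median half-width of 0.27 log2 units in their intervals. Kif11, the kinesin that pushes the spindle poles apart, stood at 127, 108 and 142 CPM with WT Tconv against 111, 112 and 122 CPM with HP1α KO Tconv, with a log2 fold change of -0.13 (SE 0.10, 95% interval -0.36 to 0.11, adjusted p = 0.609). Kif23, a kinesin of the central spindle needed for cytokinesis, stood at 43.2, 38.0 and 50.7 CPM with WT Tconv against 38.4, 35.3 and 39.4 CPM with HP1α KO Tconv. WT replicate 2 fell among the KO libraries, and the log2 fold change was -0.22 (SE 0.11, 95% interval -0.47 to 0.03, adjusted p = 0.403), the smallest p-value of the G2/M genes. Kif20a, Tpx2 and Nusap1 had log2 fold changes of 0.06, -0.06 and -0.21. Antisense exons of Brd8 and Cdc23 cover 61.5% of the exon bases of Kif20a, whose level is likewise uncertain.

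At the centromere, Cenpa, the histone H3 variant that marks it, was one of the 2 genes that were not highest in WT replicate 3. It stood at 89.5, 100.1 and 90.0 CPM with WT Tconv against 91.1, 85.5 and 83.1 CPM with HP1α KO Tconv, where WT replicate 3 was 1.00 times the mean of the other 5 libraries, and its log2 fold change was -0.11 (SE 0.07, 95% interval -0.27 to 0.06, adjusted p = 0.541). Cenpf, a kinetochore protein of G2 and mitosis, stood at 65.9, 55.5 and 86.1 CPM with WT Tconv against 61.9, 41.6 and 66.4 CPM with HP1α KO Tconv, with HP1α KO replicate 2 lowest and a log2 fold change of -0.29 (SE 0.24, 95% interval -0.87 to 0.30, adjusted p = 0.624). Cenpe, the kinetochore motor, had a log2 fold change of -0.17.

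The chromosome genes were the classical marker Mki67 and the topoisomerase Top2a. Mki67 (chr7:135291513-135318299, minus strand in GRCm39), which coats mitotic chromosomes and is the gene of the Ki-67 antigen, was second only to Pcna per kilobase (61.8 CPM per kb). Its level was 614, 488 and 1031 CPM in Treg with WT Tconv and 573, 478 and 624 CPM in Treg with HP1α KO Tconv. WT replicate 3 stood at 1.86 times the mean of the other 5, and the remaining WT libraries lay inside the KO range. The log2 fold change was -0.35 (SE 0.30, 95% interval -1.12 to 0.42, adjusted p = 0.646) and became 0.02 without that replicate. Top2a (chr11:98883769-98915062, minus strand in GRCm39), which untangles replicated DNA, stood at 440.1, 361 and 430.1 CPM in Treg with WT Tconv and 401, 404 and 422 CPM in Treg with HP1α KO Tconv. Here WT replicate 3 was at 1.06 times the mean of the others and below WT replicate 1, and the log2 fold change was -0.0048 (SE 0.09, 95% interval -0.21 to 0.20, adjusted p = 0.986), a value whose sign changed with the normalization.

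The size of the excess in WT replicate 3 differed along the set. It ranged from 1.00 times the mean of the other 5 libraries (Cenpa) to 2.72 times (E2f8), with a median of 1.31. Over all genes tested that median was 0.989. In 10 genes it exceeded 1.5 times, as it did in 1900 of the 18321 genes tested. Of the 10, 7 were S genes (E2f8, Ccne2, Cdc6, Ccne1, Rrm2, Mcm7 and E2f1) and 3 were G2/M genes (Mki67, Ccna2 and Birc5). Pcna (1.13 times), Mcm4 (1.15 times), Top2a (1.06 times) and Aurkb (1.09 times) stood out less in it.

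The promoters of the 40 genes were read for elements shared by cell cycle genes. A link between these elements and the levels by library was not tested. The window was the 250 bases before the start of the Ensembl canonical transcript in GRCm39. Searched on both strands were the CCAAT box, which NF-Y binds, the cell cycle homology region (TTTGAA or TTCGAA), which the DREAM and MuvB complexes bind, and an E2F element (TTTCCCGC, TTTCGCGC, TTTGCCGC or TTTGGCGC). A CCAAT box was found in 21 of 40 windows (52.5%), against 35.7% of the windows of 16935 protein-coding genes of the table. A cell cycle homology region was found in 1 of 18 S genes (Mcm2) and 8 of 22 G2/M genes (36.4%), among them Cdk1, Aurkb, Cdc20, Ccnb2 and Top2a, against 15.2% of all windows. An E2F element was found in 4 of 18 S genes (Mcm4, Mcm5, Mcm6 and E2f8) and 1 of 22 G2/M genes (Cdk1), against 2.69% of all windows. These are matches of letters, not sites. The promoters of the 2 S genes and 2 G2/M genes with the smallest p-values among those named are shown, as the members closest to a difference between the groups, cut where an annotated exon begins, with matches in capitals:
Mcm6: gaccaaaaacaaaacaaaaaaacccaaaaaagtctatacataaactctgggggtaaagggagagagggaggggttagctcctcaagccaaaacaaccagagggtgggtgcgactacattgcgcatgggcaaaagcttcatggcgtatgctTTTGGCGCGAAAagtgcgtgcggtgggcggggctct
E2f1: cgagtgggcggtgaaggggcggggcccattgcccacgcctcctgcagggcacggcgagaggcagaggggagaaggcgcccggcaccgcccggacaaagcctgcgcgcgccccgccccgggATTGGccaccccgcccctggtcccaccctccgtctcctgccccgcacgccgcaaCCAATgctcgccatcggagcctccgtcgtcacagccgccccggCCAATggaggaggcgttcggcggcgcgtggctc
Kif23: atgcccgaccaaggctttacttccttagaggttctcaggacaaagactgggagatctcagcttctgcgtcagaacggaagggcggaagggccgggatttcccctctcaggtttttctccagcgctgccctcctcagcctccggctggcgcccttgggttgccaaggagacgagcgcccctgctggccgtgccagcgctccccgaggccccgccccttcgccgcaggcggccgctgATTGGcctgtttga
Cenpa: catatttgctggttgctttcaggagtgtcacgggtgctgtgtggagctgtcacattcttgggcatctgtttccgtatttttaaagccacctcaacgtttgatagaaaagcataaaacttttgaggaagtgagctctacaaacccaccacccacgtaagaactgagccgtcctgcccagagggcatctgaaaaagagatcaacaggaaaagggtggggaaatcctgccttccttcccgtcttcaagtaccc
All are written 5′ to 3′ along the gene, from GRCm39 chr1:128287517-128287702 (minus strand), chr2:154411813-154412062 (minus strand), chr9:61854075-61854323 (minus strand) and chr5:30823871-30824120 (plus strand). In Mcm6 the capitals mark 2 overlapping E2F elements, TTTGGCGC and GCGCGAAA, the latter being TTTCGCGC on the reverse strand, which begin 100 and 96 bases before the start. E2f1 has 3 CCAAT boxes, at 130, 76 and 33 bases, and Kif23 has 1, at 15 bases. Cenpa has none of the letters searched. The counts above used the whole window, whose bases within annotated exons are not printed: Mcm6 was also counted with a CCAAT box and Kif23 with a cell cycle homology region, and both matches fall in or across the bases left out.

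The rest of the cell cycle machinery was read from a list of 141 other genes, made of 51 S genes, 51 G2/M genes, 29 regulators of G1 and 10 genes of quiescence. edgeR called 0 of the 141, with 19 at an unadjusted p-value under 0.05 (14.5% of all genes tested, 1377 lower and 1279 higher). Of the 19, 15 were lower and 4 higher in Treg with HP1α KO Tconv. The 4 higher ones, named after their values were seen, were Pold1, a DNA polymerase subunit (0.27), Pttg1, which encodes securin (0.19), Cdk4, a partner of the D cyclins (0.17), and Slfn2, a gene of T cell quiescence (0.24), with edgeR adjusted p-values of 0.265, 0.285, 0.331 and 0.269. limma-voom also called 0 of the 141, and 0 of all genes tested. DESeq2 called 11 of the 139 it tested, all lower (4.35% of all genes were called in either direction and 3.03% lower). In the simulated data described under processing, DESeq2 made 38 false calls beside 42 true ones at a log2 change of 0.5. Genes were drawn there independently, without shifts shared across a library, so that ratio need not hold for these calls. The median log2 fold change of the 141 was -0.09, beside -0.01 over all genes tested. The groups did not overlap for 17 of them with lower values and 8 with higher values (23.0% of all genes in either direction). Leaving out WT replicate 3, the library with the most red cell and neutrophil precursor RNA, took the DESeq2 count from 11 to 0, where it called 1.35% of all genes, and leaving out WT replicate 1, WT replicate 2 or HP1α KO replicate 3 took it to 4, 4 and 3, where DESeq2 called 2.41%, 2.22% and 2.76% of all genes. The count fell less without HP1α KO replicate 1 (5.02% of all genes called) and rose without HP1α KO replicate 2 (11.3% of all genes called). Of the 11 calls, Tob1 was kept in 5 of the 6 fits that left out 1 library, Orc1 and Hmgb2 in 4, Cdkn1a and Ncapd2 in 3, Atad2, Cdk6 and Btg1 in 2, Dbf4 and Lmnb1 in 1 and Lin54 in 0. With 1 library left out, edgeR log2 fold changes ranged from -0.51 to -0.38 (Tob1), -0.41 to -0.28 (Btg1), -0.39 to -0.25 (Cdk6) and -0.88 to -0.48 (Cdkn1a). They ranged from -0.32 to -0.24 (Dbf4), -0.38 to -0.23 (Atad2), -0.55 to -0.30 (Lmnb1) and -0.28 to -0.22 (Hmgb2). Of the genes named here, Orc1, Ncapd2 and Lin54 were picked after their values were seen, as the remaining DESeq2 calls.

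Of the 10 quiescence genes, DESeq2 called 2, Tob1 and Btg1, both lower, and of the 27 regulators of G1 it tested it called 3, Cdk6, Cdkn1a and Lin54, all lower, where it called 3.03% of all genes lower. Tob1, an antiproliferative protein of resting T cells, stood at 25.9, 25.6 and 27.6 CPM in Treg with WT Tconv and 21.1, 19.4 and 17.5 CPM in Treg with HP1α KO Tconv. The groups did not overlap, and the log2 fold change was -0.45 (SE 0.09, 95% interval -0.66 to -0.24, adjusted p = 0.209) by edgeR, with an adjusted p of 0.00677 by DESeq2. Without WT replicate 3 the adjusted p of DESeq2 was 0.0553, while WT replicates 1 and 2 still lay above all 3 KO libraries. Btg1, of the same family, stood at 2108, 2400.4 and 2139.9 CPM with WT Tconv against 1868, 1548 and 1768 CPM with HP1α KO Tconv, with a log2 fold change of -0.36 (SE 0.10, 95% interval -0.58 to -0.14, adjusted p = 0.209) by edgeR and an adjusted p of 0.0193 by DESeq2. Cdkn1a, the Cdk inhibitor induced by p53, stood at 57.8, 60.0 and 69.6 CPM with WT Tconv against 42.5, 47.0 and 25.5 CPM with HP1α KO Tconv, with a log2 fold change of -0.71 (SE 0.24, 95% interval -1.29 to -0.12, adjusted p = 0.284) by edgeR and an adjusted p of 0.00932 by DESeq2. Cdkn1b, a Cdk inhibitor that holds resting T cells in G1, stood at 319.6, 365 and 338 CPM with WT Tconv against 292, 259 and 293 CPM with HP1α KO Tconv, without overlap but not called, with a log2 fold change of -0.28 (SE 0.08, 95% interval -0.46 to -0.09, adjusted p = 0.225) by edgeR and an adjusted p of 0.0655 by DESeq2. Other genes of these lists pointed the other way without a call, among them Klf2, at an edgeR log2 fold change of 0.37 (adjusted p = 0.214 by DESeq2), and Cdk4 and Slfn2 as given above.

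Cdk6, the kinase of the D cyclins, stood at 262, 228 and 233 CPM with WT Tconv against 210.4, 170.5 and 193 CPM with HP1α KO Tconv, with a log2 fold change of -0.33 (SE 0.09, 95% interval -0.55 to -0.12, adjusted p = 0.220) by edgeR and an adjusted p of 0.0454 by DESeq2. Lin54, a subunit of the DREAM and MuvB complexes, had a log2 fold change of -0.48 by edgeR (adjusted p = 0.281 by edgeR and 0.0482 by DESeq2). The D cyclins themselves overlapped between the groups. Ccnd2 stood at 421, 385 and 363 CPM with WT Tconv against 382, 349.8 and 401 CPM with HP1α KO Tconv (log2 fold change -0.05), and Ccnd3 at 93.0, 98.2 and 122 CPM with WT Tconv against 111, 105 and 115 CPM with HP1α KO Tconv (log2 fold change 0.08). Myc had a log2 fold change of 0.26 (SE 0.14, 95% interval -0.08 to 0.59, adjusted p = 0.465) and Foxm1, the factor that drives G2/M genes, one of -0.19 (SE 0.19, 95% interval -0.63 to 0.25, adjusted p = 0.675).

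Log2 fold changes in this paragraph are those of DESeq2. Among the other S genes, Orc1, a subunit of the origin recognition complex, stood at 11.5, 11.4 and 18.9 CPM with WT Tconv against 8.93, 8.14 and 7.24 CPM with HP1α KO Tconv, with a log2 fold change of -0.79 (adjusted p = 0.00703 by DESeq2). Dbf4, which activates the kinase Cdc7 at origins, stood at 75.4, 72.9 and 76.8 CPM with WT Tconv against 59.3, 65.4 and 60.6 CPM with HP1α KO Tconv, with a log2 fold change of -0.28 (adjusted p = 0.0444 by DESeq2). Atad2, a bromodomain ATPase of replicating chromatin, had a log2 fold change of -0.32 (adjusted p = 0.0448 by DESeq2). These 3 had edgeR adjusted p-values of 0.219, 0.209 and 0.212. Among the other G2/M genes, Ncapd2, a condensin subunit, stood at 642, 575 and 929 CPM with WT Tconv against 526, 407 and 455 CPM with HP1α KO Tconv, with a log2 fold change of -0.63 (adjusted p = 0.00801 by DESeq2). Other condensin genes of the list were not called. Ncapg (37.6 to 60.6 CPM), Ncaph (31.5 to 38.6 CPM), Smc2 and Smc4 had log2 fold changes of -0.12, 0.0011, -0.17 and -0.02. Whether other genes overlap Ncapd2 was not examined. Lamin B1 (Lmnb1) and the chromatin protein Hmgb2 had log2 fold changes of -0.42 and -0.27 (adjusted p = 0.0328 and 0.0488 by DESeq2).

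**Figure D5:**
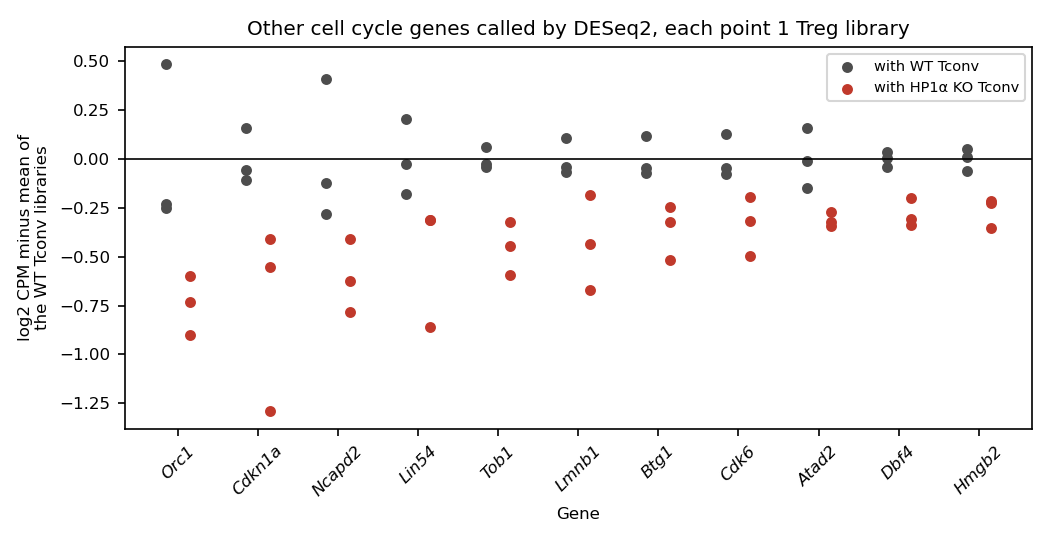
Log2 CPM minus the mean of the 3 WT Tconv libraries (y axis) for the 11 other cell cycle genes (x axis) called lower by DESeq2, with a point for each Treg library, WT Tconv in grey and HP1α KO Tconv in red. For each gene the 3 red points lie below the 3 grey points, and edgeR called 0 of the 11.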

How the data were processed

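Total RNA of 6 Treg libraries was sequenced on a stranded, paired-end protocol. Read trimming, alignment to the GRCm39 (mm39) mouse genome with STAR and estimation of expression with Salmon were done by the authors, per the submitters' processing notes and the study's methods. The deposited table holds estimated counts per gene, not normalized and already whole numbers. Salmon assigns reads that match several genes by a model. Of the 29199 genes, 97 had no symbol and held 0.0664% of all counts. They were kept under their identifiers. For 6 cell cycle genes a pseudogene of at least 95% identity over at least 200 bases was in the table, with at most 0.925% of the counts of its parent.

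The main test was the quasi-likelihood F-test of edgeR 4.0.16 (R 4.3.3; robust, TMM, filterByExpr, group as the sole term), with Benjamini-Hochberg adjustment over all 18321 genes and a threshold of 0.05. Standard errors were derived from the log2 fold change and F. DESeq2 1.42.0, with independent filtering at 0.1, and voom of limma 3.58.1 were alternatives, with other normalizations, filters, a replicate block and leaving out each library. The alternatives for the 141 other cell cycle genes were chosen after seeing the data. Log2 CPM for scores used a prior count of 2. Scores were compared without a test. The fits were tested on simulated data in which 200 of the 18321 genes were changed and each gene was drawn independently. At a log2 change of 0.5, edgeR called 2 of the 200 and made 1 false call, and DESeq2 called 42 and made 38. At a log2 change of 2, edgeR called 140 with 9 false calls, and DESeq2 called 151 with 60.

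The 40 genes and the other lists were chosen with earlier results of these data known. Named throughout were 14 fixed genes (Mki67, Top2a, Cdk1, Ccnb1, Aurkb, Birc5, Cdc20, Cenpf, Kif11, Mcm2, Pcna, Rrm2, E2f1 and Ccne1), the gene with the smallest edgeR p-value in each of 9 role groups, the 2 with the smallest in each other list, and Myc, Cdkn1a, Cdkn1b, Ccnd2, Ccnd3 and Foxm1. Positions, exon lengths and promoter windows came from GENCODE vM39 on GRCm39, and transcripts were compared with BLAST 2.17.0. Windows were read from this genome in place of the RefSeq promoters planned, since the RefSeq window of E2f1 lies within its first exon. Each library was 1 replicate. Precision at these depths was set by the spread between 3 libraries a group, not by counting.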

Additional observations from a re-analysis of the deposited data

How the results depend on the processing

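The count of called genes among the 40 was 0 under every alternative run, by edgeR, limma-voom and DESeq2, for each normalization and filter, with the replicate block and with each library left out. Over all genes, the edgeR and limma-voom alternatives called only 0 to 2, apart from 38 with no filter beyond 1 count, so their 0 of 40 says little about this set. DESeq2 called 181 (without WT replicate 3) to 1413 (without HP1α KO replicate 2) of all genes with 1 library left out. The median log2 fold change of the 40 ranged from -0.21 (without WT replicate 2) to 0.02 (without WT replicate 3) when 1 library was left out, and from -0.12 to -0.07 under the other alternatives. Differences of the score over all 40 genes ranged from -0.27 to 0.05, of the S score from -0.33 to 0.034, and of the G2/M score from -0.23 to 0.05 when 1 library was left out, above 0 only without WT replicate 3. The direction of single genes near 0 depended on these choices. Top2a was 0.000256 by limma-voom, 0.0163 with upper quartile and 0.0322 with library-total normalization, and 0.000419 with the replicate block. Mcm2 was 0.0141, 0.0220, 0.0363 and 0.0162 under the same settings. With 1 library left out, log2 fold changes ranged from -0.55 to 0.019 (Mki67), -0.077 to 0.062 (Top2a), -0.21 to 0.013 (Cdk1), -0.12 to 0.21 (Ccnb1), -0.0026 to 0.20 (Aurkb), -0.10 to 0.20 (Mcm2), -0.089 to 0.020 (Pcna), -0.48 to 0.38 (Ccne1) and -0.095 to 0.025 (Ccnd2). In the alternatives for the other 141 genes, chosen after seeing the data, DESeq2 called 0 (without WT replicate 3) to 15 (without HP1α KO replicate 2) of them with 1 library left out, where it called 1.35% and 11.3% of all genes, and 5 with the replicate block (2.27% of all genes), against 11, and edgeR called 0 throughout. Of the 11, the block kept Ncapd2, Cdk6, Cdkn1a, Lin54 and Tob1, and the other 6 (Orc1, Dbf4, Atad2, Lmnb1, Hmgb2 and Btg1) had adjusted p-values of 0.0569 to 0.116 by DESeq2. Leaving out a library also leaves fewer libraries, and the cause of these shifts was not tested. Samples with the same replicate number did not deviate together in all 3 pairs (correlations of deviations -0.04, 0.18 and 0.12, with 1 of 3 WT libraries closest to its own number), so the numbers were not treated as pairs, and the block left the 40 genes at 0 calls and gave 1 call over all genes against 0. With 3 libraries a group, the 95% interval half-widths of the 40 genes were 0.17 to 1.39 log2 units.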
